A study of Mus musculus with 10 samples.

Results

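The genes described are 45 interferon-stimulated genes of the mouse, together with the interferon receptor subunits that control them, chosen by symbol as a list of the response and found, all 45, among the 26264 genes of the deposited table. Transcripts were measured in CD31+ endothelial cells sorted from brains freed of meninges, cerebellum and olfactory bulbs, in a series that asks what happens to brain vessels when microglia are lost. Every mouse was of strain C57BL6 and ate either control diet or a diet with 1200 ppm PLX5622 for 1 month. PLX5622 inhibits CSF1R, the receptor that microglia need to survive, and acts on any cell that carries it. There were 4 groups, control males (n = 3), control females (n = 2), PLX5622 males (n = 3) and PLX5622 females (n = 2), making 10 libraries. The labels give no age and name no transgene, and the titles call the replicates biological without saying whether a library came from a single mouse. Of the 45 genes, 44 reached a TPM (a read level corrected for gene length and brought to a common library total) of at least 1 in at least 5 libraries and were among the 12751 genes tested.

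Type I interferons bind a receptor made of IFNAR1 and IFNAR2, which signals through kinases to STAT2. A complex that holds STAT2 and IRF9 binds the interferon-stimulated response element (ISRE) in the promoters of genes that block viruses, among them the IFIT, OAS, ISG15, MX and IFITM families. Interferon gamma acts through IFNGR1 on a separate element, the gamma-activated site (GAS), and favours the guanylate-binding proteins and immunity-related GTPases. IRF7 is itself induced and amplifies the response, while USP18 restrains it. Endothelial cells of the brain carry these receptors and respond to interferon, which is known to act on the vessel barrier.

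The libraries held 26.4 to 61.5M recovered reads (M, mega), with control male 2 the deepest. The 13 endothelial markers summed to between 27111 and 28478 TPM in the controls and between 27150 and 28280 TPM under PLX5622, and none was at 0, so the sorted cells carry the markers of their label. The 18 microglial markers summed to between 56.6 and 237 TPM in the controls and between 41.9 and 50.3 TPM under PLX5622, where Cx3cr1, P2ry13, Siglech, C1qc, Trem2, Aif1 and Fcrls were listed at 0. The library labelled control female 1 stood apart among the controls, with Csf1r at 0.0689 TPM from 3 reads against 6.78 to 20.2 TPM in the other 4. This lies within the 0 to 0.461 TPM of the PLX5622 libraries, so on this gene it goes against its diet label, and it is called control female 1 by its label only. Counts over the members, and the values of some genes, are also given without it. The limma fit within females rests on it as 1 of 2 control females and is given with it only. Xist and Ddx3y matched the labelled sex in all 10 libraries. In sorted bulk RNA, fewer cells of a type and less RNA per cell cannot be told apart.

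Of the 45 genes 44, all but Oas3, were read in every library, and control males had the lowest levels. The mean over all 45 genes was 118, 127 and 104 TPM in control males and 152 and 134 TPM in control females. It was 141, 138 and 133 TPM in PLX5622 males and 155 and 142 TPM in PLX5622 females. The 3 control males lay below all 7 other libraries, and control females lay among the PLX5622 libraries. By diet the mean was 127 ± 17.8 TPM in the controls against 142 ± 8.06 TPM under PLX5622 (SD, n = 5 per diet), and the diets overlapped. Without control female 1 the controls averaged 121 ± 12.9 TPM (SD, n = 4, of which 3 males), with no adjustment for sex. By sex it was 127 ± 13.9 TPM in males (SD, n = 6) and 146 ± 9.75 TPM in females (SD, n = 4).

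**Figure D1:**
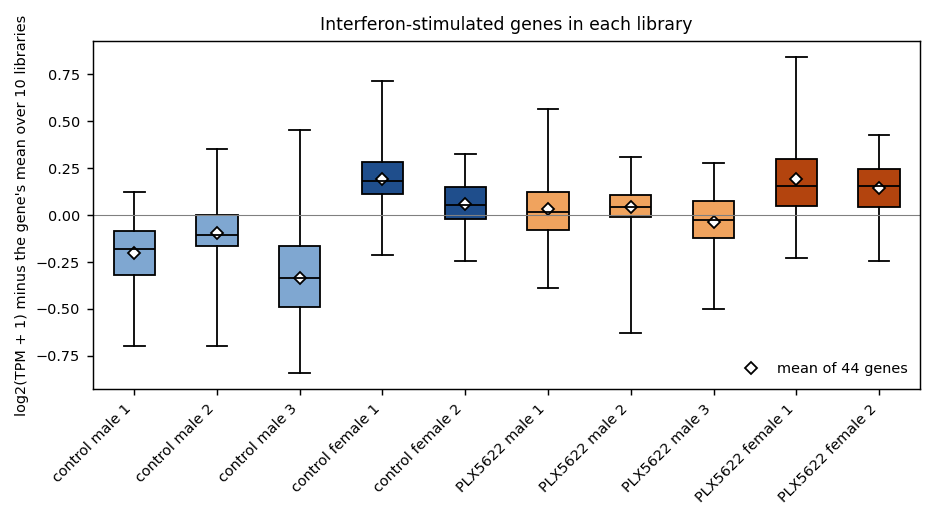
Level of the 44 tested interferon-stimulated genes in each of the 10 libraries, as log2(TPM + 1) minus the gene's own mean over all libraries (y axis, log2 units). Boxes span the quartiles with a line at the median, whiskers reach the lowest and highest gene, and diamonds mark the mean, which runs from -0.33 in control male 3 to 0.19 in control female 1 and PLX5622 female 1.

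Control male 3 had the lowest value of all 10 libraries for 32 of the 44 genes, while it was lowest for 14% of all tested genes. Control female 1 was highest for 15 members, against 10.3% of all genes, and PLX5622 female 1 for 14 members, against 4.99% of all genes. The mean centred level per gene, in log2 units, was -0.20, -0.09 and -0.33 in control males and 0.19 and 0.06 in control females. On PLX5622 it was 0.03, 0.04 and -0.04 in males and 0.19 and 0.15 in females. Not every gene followed this order, and the receptors, Irf1 and Cxcl10 ran their own course.

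**Figure D2:**
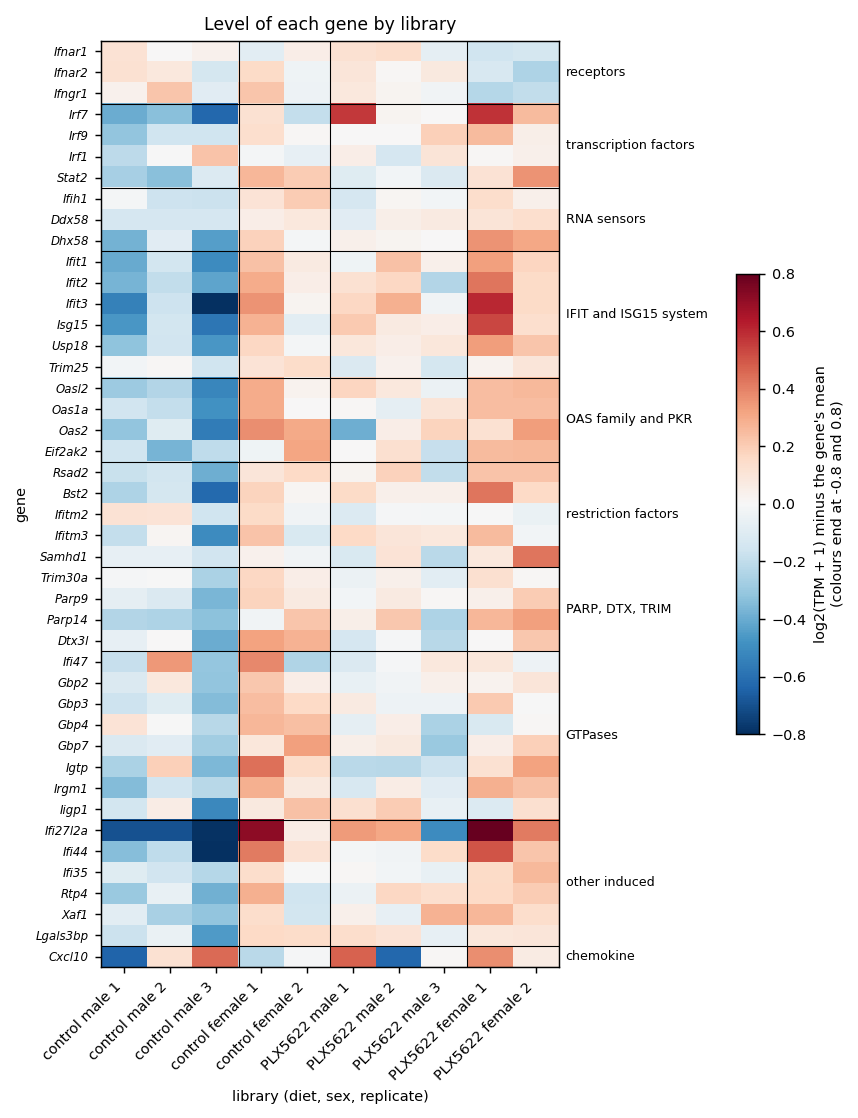
Each interferon-stimulated gene (rows, ordered by role) in each library (columns, by diet, sex and replicate), coloured by log2(TPM + 1) minus the gene's mean, with colours ending at -0.8 and 0.8. The 3 control male columns are mostly blue from Irf7 through Lgals3bp, and the receptor rows at the top and Cxcl10 at the bottom do not share that pattern.

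An ISRE core was found in the promoter window of 20 of the 36 members with a promoter in the table described here. Stretches are shown for 5 genes that lay high on PLX5622 or in females (Isg15, Ifit1, Ifit3, Bst2 and Oas1a), for the GTPases Igtp and Irgm1, and for Irf7, whose diet difference had the smallest p among the members. They were read from RefSeq's mouse promoters of build GRCm38.p6, a build other than the authors' mm39, over 250 bases before to 50 bases after the gene's start. Each is written 5′ to 3′ along the gene, and capitals mark matches to the ISRE core GAAANNGAAA on either strand, overlapping matches being joined.
Isg15: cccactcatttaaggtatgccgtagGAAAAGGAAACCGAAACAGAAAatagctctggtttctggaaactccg
Ifit1: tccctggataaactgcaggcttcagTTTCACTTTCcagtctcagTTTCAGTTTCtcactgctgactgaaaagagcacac
Ifit3: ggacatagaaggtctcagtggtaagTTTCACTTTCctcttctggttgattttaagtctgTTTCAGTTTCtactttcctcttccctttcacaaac
Bst2: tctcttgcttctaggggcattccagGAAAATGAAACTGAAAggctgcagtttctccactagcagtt
Oas1a: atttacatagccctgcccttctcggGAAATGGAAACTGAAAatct
Igtp: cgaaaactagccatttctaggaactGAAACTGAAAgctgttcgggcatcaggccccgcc
Irgm1: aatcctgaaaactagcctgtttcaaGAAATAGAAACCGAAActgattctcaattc
Irf7: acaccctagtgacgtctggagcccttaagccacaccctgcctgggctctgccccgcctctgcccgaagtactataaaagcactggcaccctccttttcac

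On GRCm38.p6 these stretches lie at chr4:156200850-156200921 on the minus strand (Isg15), chr19:34640760-34640838 on the plus strand (Ifit1), chr19:34583348-34583441 on the plus strand (Ifit3) and chr8:71537562-71537627 on the minus strand (Bst2). The others lie at chr5:120907526-120907570 on the minus strand (Oas1a), chr11:58199497-58199555 on the plus strand (Igtp), chr11:48871421-48871475 on the minus strand (Irgm1) and chr7:141266425-141266524 on the minus strand (Irf7). Isg15 held 3 overlapping ISRE cores, while Ifit1, Ifit3, Bst2, Oas1a and Irgm1 held 2 each and Igtp held 1. Irf7 had no match in its whole window, of which the 100 bases before the start are shown.

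Over all members, 36 genes had 41 promoters in the RefSeq table, and 9 genes had none there. The ISRE core was found in 21 of the 41 member promoters (51.2%), against 3.44% of 32851 promoters of the same length. The longer form GAAANNGAAACT, which contains the core, was found in 13 (31.7%), against 0.271% of all. The GAS letters TTCNNNGAA, which read the same on both strands, were found in 12 (29.3%), against 8.3% of all. A match is a run of letters and not a measured binding site.

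No interferon-stimulated gene passed the limma test for diet over all genes, although most lay slightly higher on PLX5622. Of the 44 tested, 36 had a log2 fold change above 0 (44.3% of all tested genes did), with a median of 0.13 against -0.02 over all genes and a range from -0.16 to 0.57. At a Benjamini-Hochberg adjusted p under 0.05 the limma fit of sex and diet called 0 members higher and 0 lower, where 0.0941% and 0.0392% of all genes were called. At an unadjusted p under 0.05, limma had 19 members higher (3.13% of all genes) and 0 lower (5.18% of all genes). The count of 19 was 11 in a limma fit without the sex term (2.99% of all genes in that fit). Without control male 3, 31 members lay above 0 (41.9% of all genes in that fit), with a median of 0.12. At an unadjusted limma p under 0.05, 13 were then higher (3.49%) and 3 lower (6.45%). Without PLX5622 male 2, 1 member was lower at that level (4.48% of all genes in that fit). For no member were all 5 PLX5622 libraries above all 5 controls (0.525% of all genes) or below them (1.27%). Without the library labelled control female 1, limma called 0 members for diet, 36 lay above 0 (42.9% of all genes in that fit), their median was 0.16, and 19 were higher (3.04%) and 0 lower (5.26%) at an unadjusted p under 0.05. All 5 PLX5622 libraries then lay above the other 4 controls for 7 members, Isg15, Irf7, Usp18, Bst2, Dhx58, Rtp4 and Xaf1 (0.831% of all genes), and below them for 0 (1.98%). These overlap counts are not adjusted for sex, and the 4 controls left are 3 males and 1 female. Irf7 then had a log2 fold change of 0.63 (limma adjusted p = 0.122) and Usp18 of 0.36 (limma adjusted p = 0.114).

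In the authors' deposited table of DESeq2 results, 1 of the 45 members was called, Irf7, higher on PLX5622 (0.267% of its 19474 genes were called higher). That table had 14 members higher at an unadjusted p under 0.05 (3.05% of its genes), 0 lower (3.28%) and 36 with a log2 fold change above 0. The members' median log2 fold change there was 0.15, against 0.01 over its genes. The microglial marker sums given above differ between the diets as well, and their part in the members' values was not tested.

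**Figure D3:**
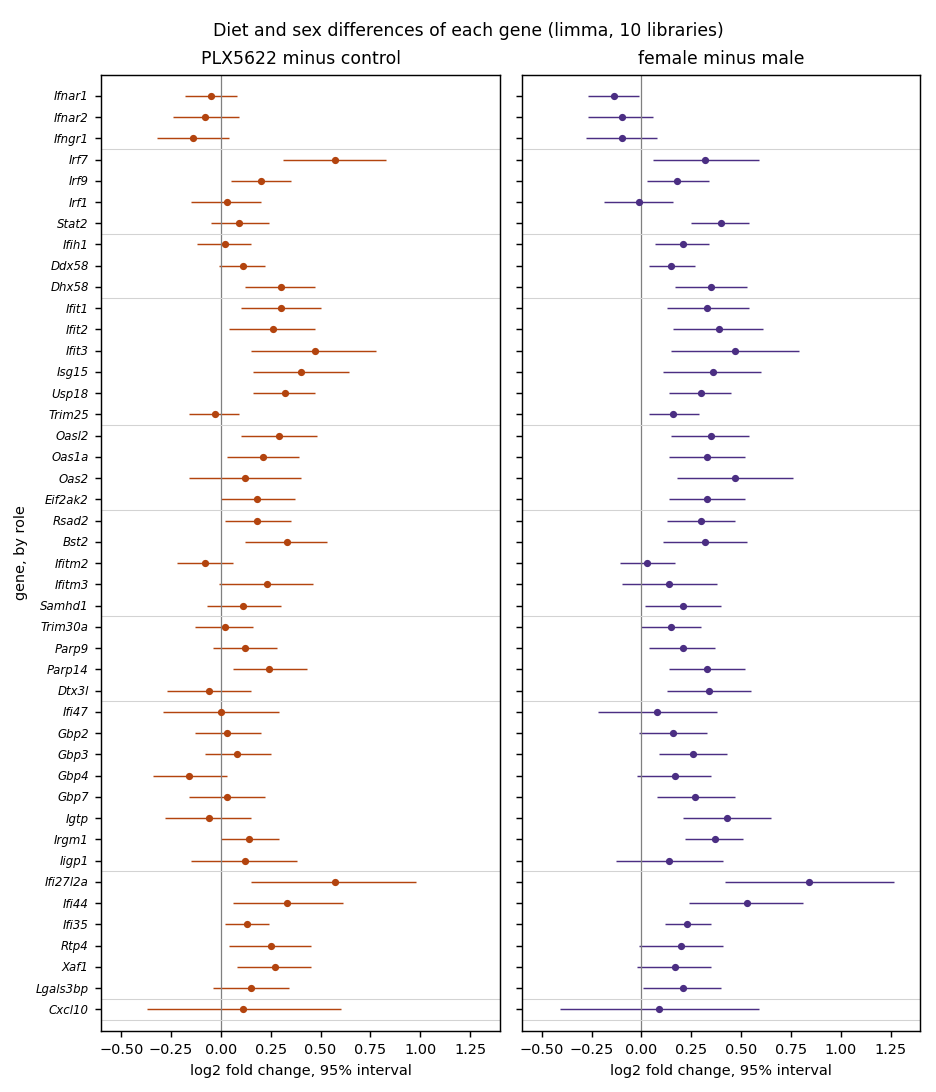
Log2 fold change (x axis, with its 95% interval from limma) of each tested gene (y axis, in blocks by role) for PLX5622 minus control on the left and for female minus male on the right, over 10 libraries. Most points lie right of 0 in both panels, with medians of 0.13 and 0.24, while the 3 receptors at the top lie left of 0 in both.

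The receptors were abundant, and none passed the limma test for diet. Ifnar1, a subunit of the type I interferon receptor, stood at 252, 233 and 238 TPM in control males, 219 and 241 TPM in control females, 253, 257 and 221 TPM in PLX5622 males and 208 and 211 TPM in PLX5622 females. Ifnar2, its partner, stood at 220, 214 and 183 TPM in control males, 225 and 197 TPM in control females, 216, 203 and 213 TPM in PLX5622 males and 185 and 170 TPM in PLX5622 females. Ifngr1, the ligand-binding subunit for interferon gamma, stood at 63.6, 72.8 and 58.4 TPM in control males, 72.8 and 60.3 TPM in control females, 65.9, 63.1 and 61 TPM in PLX5622 males and 52.9 and 54.1 TPM in PLX5622 females. Both PLX5622 females lay below all other libraries for Ifnar1 and Ifngr1, and for Ifnar2 control male 3 at 183 TPM lay between them. The diet log2 fold changes were -0.05 ± 0.06 for Ifnar1, -0.08 ± 0.08 for Ifnar2 and -0.14 ± 0.08 for Ifngr1 (SE, limma adjusted p of 0.917, 0.875 and 0.725).

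Among the transcription factors, Irf7 showed the largest difference of this role and shared the largest of all members with Ifi27l2a. Irf7, the factor that amplifies the interferon response, stood at 207, 216 and 176 TPM in control males, 296 and 239 TPM in control females, 403, 277 and 273 TPM in PLX5622 males and 408 and 325 TPM in PLX5622 females. Within each sex every PLX5622 library lay above every control, but control female 1 at 296 TPM lay above PLX5622 males 2 and 3. The log2 fold change was 0.57 ± 0.12 (SE), from 227 ± 45 to 337 ± 65.4 TPM (SD, n = 5 each), with a limma adjusted p of 0.212 and an unadjusted limma p of 4.65e-04. The authors' deposited table gave 0.59 ± 0.13 (SE) with a DESeq2 adjusted p of 0.0022. Irf7 shares 45 exonic bases with Phrf1, on the opposite strand, in the GENCODE M21 annotation, and the libraries do not keep strand. Phrf1 itself averaged 64.6 TPM in the controls against 66.2 TPM under PLX5622 (log2 fold change 0.03 ± 0.07 SE, limma adjusted p = 0.961).

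Irf9, the DNA-binding subunit that joins STAT2, averaged 151 ± 18.6 TPM in the controls against 173 ± 14.4 TPM under PLX5622 (SD, n = 5 per diet, log2 fold change 0.20, limma adjusted p = 0.437). Stat2, which joins it, stood at 82.9, 78.9 and 92.2 TPM in control males, 120 and 115 TPM in control females, 93.1, 98 and 91.9 TPM in PLX5622 males and 108 and 128 TPM in PLX5622 females. Its values separate by sex and not by diet, and the diet log2 fold change was 0.09 ± 0.07 (SE, limma adjusted p = 0.776). Irf1, a factor that answers interferon gamma strongly, stood at 132 ± 15.1 and 135 ± 8.20 TPM (SD, n = 5 each, log2 fold change 0.03, limma adjusted p = 0.974).

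The 3 RNA sensors all had a diet log2 fold change above 0 (44.3% of all genes did), with a median of 0.11. Dhx58, which encodes LGP2, a helicase that modulates the other sensors, stood at 17.8, 22 and 17 TPM in control males, 26.8 and 23.2 TPM in control females, 24.2, 23.8 and 23.5 TPM in PLX5622 males and 30.4 and 29.3 TPM in PLX5622 females. Both PLX5622 females lay above all other libraries, and the 3 control males lay below all others. The log2 fold change of Dhx58 was 0.30 ± 0.08 (SE, limma adjusted p = 0.318). Ddx58, which encodes RIG-I, had 0.11 and Ifih1, which encodes MDA5, had 0.02.

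In the IFIT and ISG15 system 5 of 6 genes were higher at an unadjusted limma p under 0.05 (3.13% of all tested genes were), and the median diet log2 fold change was 0.31. Isg15, a ubiquitin-like protein joined to others during the response, stood at 183, 228 and 169 TPM in control males, 306 and 238 TPM in control females, 292, 265 and 262 TPM in PLX5622 males and 366 and 277 TPM in PLX5622 females. Usp18, the protease that removes ISG15 and also dampens the type I receptor, stood at 83.8, 94.3 and 76 TPM in control males, 118 and 104 TPM in control females, 112, 109 and 112 TPM in PLX5622 males and 133 and 123 TPM in PLX5622 females. In both genes the control males lay below every other library, and control female 1 lay above all 3 PLX5622 males. The log2 fold changes were 0.40 ± 0.11 for Isg15 and 0.32 ± 0.07 for Usp18 (SE, limma adjusted p of 0.327 and 0.246).

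Ifit1, which binds viral RNA lacking host cap marks, stood at 73.1, 87.3 and 68 TPM in control males, 114 and 102 TPM in control females, 94.6, 114 and 99.5 TPM in PLX5622 males and 122 and 109 TPM in PLX5622 females. Ifit3, its partner, stood at 113, 147 and 91.6 TPM in control males, 212 and 168 TPM in control females, 185, 201 and 162 TPM in PLX5622 males and 251 and 184 TPM in PLX5622 females. In both, PLX5622 males did not overlap control males, whereas the females of the 2 diets did overlap. The log2 fold changes were 0.30 ± 0.09 for Ifit1 and 0.47 ± 0.14 for Ifit3 (SE, limma adjusted p of 0.39 and 0.387). Ifit3 and its near copy Ifit3b can exchange reads, so the level of each is uncertain. Ifit2, another RNA-binding member, had 0.26, and Trim25, a ligase that acts on RIG-I and ISG15, had -0.03.

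**Figure D4:**
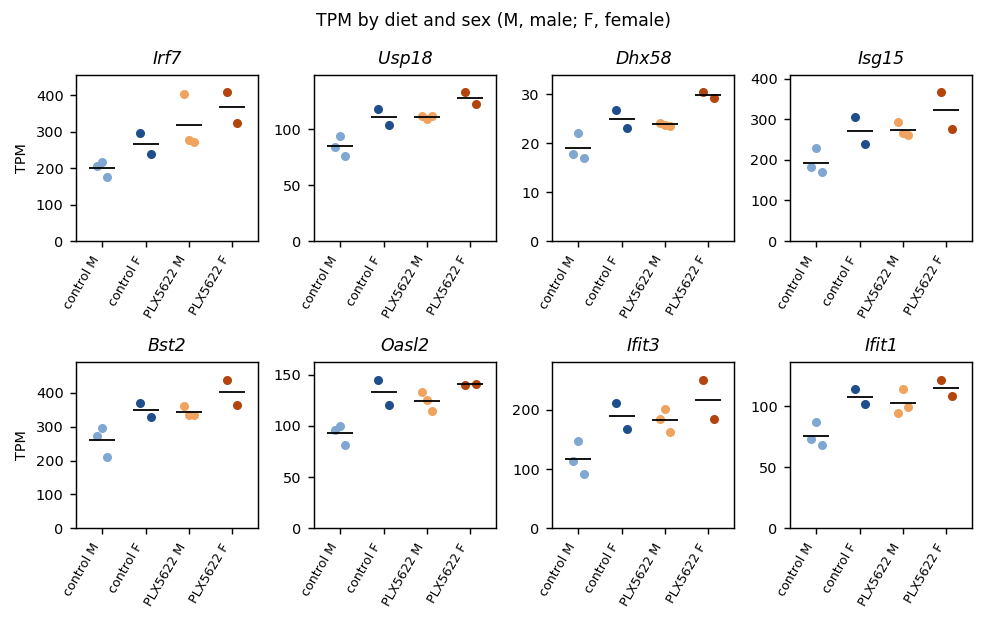
TPM (y axis, from 0) of the 8 members with the smallest limma p for diet, by diet and sex (x axis, M male and F female). Each point is a library (3 males and 2 females per diet) and each line is the group mean. In all 8 genes the control males are the lowest group. Control females lie near PLX5622 males except in Irf7, where the means are 268 TPM in control females and 317 TPM in PLX5622 males.

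The OAS family makes 2′-5′ oligoadenylates that switch on RNase L, and PKR, from Eif2ak2, halts translation when it meets double-stranded RNA. Oasl2, an OAS-like protein, stood at 96.1, 100 and 81.5 TPM in control males, 145 and 120 TPM in control females, 133, 125 and 114 TPM in PLX5622 males and 140 and 141 TPM in PLX5622 females. The control males lay below every other library, and control female 1 had the highest value of all. The log2 fold change of Oasl2 was 0.29 ± 0.09 (SE, limma adjusted p = 0.382). Oas1a had 0.21, Eif2ak2 0.18 and Oas2 0.12, none past the limma test. Oas3 did not pass the filter, with 0, 4, 0, 0 and 0 reads in the controls and 1, 5, 1, 0 and 10 reads on PLX5622. Oas1a and its close copy Oas1g can share reads, which leaves both levels uncertain.

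Restriction factors of membranes and nucleotide pools spanned from -0.08 to 0.33 in diet log2 fold change. Bst2, which encodes tetherin and holds budding virus at the cell surface, stood at 274, 296 and 211 TPM in control males, 369 and 329 TPM in control females, 362, 336 and 335 TPM in PLX5622 males and 439 and 364 TPM in PLX5622 females. Control males lay below all other libraries, and control female 1 lay above 4 of the 5 PLX5622 libraries. The log2 fold change of Bst2 was 0.33 ± 0.09 (SE, limma adjusted p = 0.369). Ifitm3, which blocks viral fusion, was the most abundant member at 1077 ± 197 TPM in the controls against 1248 ± 87.4 TPM under PLX5622 (SD, n = 5 per diet, log2 fold change 0.23, limma adjusted p = 0.614). Its paralog Ifitm2 had -0.08, Rsad2, the enzyme viperin, had 0.18, and Samhd1, which degrades deoxynucleotides, had 0.11.

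The PARP, DTX and TRIM genes had a median diet log2 fold change of 0.07. Parp14, a mono-ADP-ribosyltransferase, stood at 53.5 ± 8.85 and 63.5 ± 9.67 TPM (control and PLX5622, SD, n = 5 each, log2 fold change 0.24, limma adjusted p = 0.419). Parp9 and Dtx3l, which form a ubiquitin ligase, had 0.12 and -0.06, and Trim30a had 0.02. Parp9 and Dtx3l share 458 exonic bases on opposite strands in GENCODE M21, so some of their reads cannot be assigned.

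The interferon-inducible GTPases, which attack the vacuoles of intracellular pathogens, lay close to 0, with a median of 0.03 over 8 genes. Irgm1, a regulator of this family, stood at 127, 146 and 139 TPM in control males, 198 and 171 TPM in control females, 148, 169 and 152 TPM in PLX5622 males and 198 and 191 TPM in PLX5622 females. All 4 females lay above all 6 males, while the diets overlapped. The diet log2 fold change of Irgm1 was 0.14 ± 0.06 (SE, limma adjusted p = 0.584). Gbp4 had the lowest diet value of all members, -0.16 ± 0.08 (SE, limma adjusted p = 0.691), at 90.9 ± 12.4 TPM in the controls against 81.0 ± 6.61 TPM under PLX5622 (SD, n = 5 per diet). The other guanylate-binding proteins had 0.03 (Gbp2), 0.08 (Gbp3) and 0.03 (Gbp7), and the immunity-related GTPases had -0.06 (Igtp), 0.12 (Iigp1) and 0.00 (Ifi47). Gbp4 shares exonic bases with Gbp9, and Igtp with Irgm2, in GENCODE M21.

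Of 6 other induced genes 5 were higher at an unadjusted limma p under 0.05 (3.13% of all tested genes were), with a median of 0.26. Ifi27l2a, a small protein strongly induced by interferon, stood at 7.66, 7.66 and 7.1 TPM in control males, 22 and 13.6 TPM in control females, 16.8, 16.4 and 8.92 TPM in PLX5622 males and 24.2 and 17.7 TPM in PLX5622 females. Its control males lay below all other libraries, and control female 1 had the second highest value of all 10. The log2 fold change was 0.57 ± 0.19 (SE, limma adjusted p = 0.415). Ifi35, a partner of the interferon-induced protein NMI, stood at 141, 136 and 129 TPM in control males, 167 and 151 TPM in control females, 152, 149 and 145 TPM in PLX5622 males and 168 and 181 TPM in PLX5622 females, and the diet log2 fold change was 0.13 ± 0.05 (SE, limma adjusted p = 0.503). Within each sex the 2 diets of Ifi35 did not overlap. Ifi44 had 0.33, Xaf1, which antagonises an inhibitor of apoptosis, had 0.27, Rtp4 had 0.25 and Lgals3bp, a secreted glycoprotein, had 0.15. Cxcl10, a chemokine for T cells, spanned 10.3 to 23.1 TPM in the controls and 10.4 to 23.4 TPM under PLX5622, and the diet log2 fold change was 0.11 ± 0.22 (SE, limma adjusted p = 0.953).

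Sex gave a larger difference than diet by median, with females higher in most members, though again none passed the limma test. In the same fit 40 of 44 members lay above 0 for female minus male (54.4% of all genes did), with a median log2 fold change of 0.24 against 0.01 over all genes. At an adjusted p under 0.05 limma called 0 members higher and 0 lower (0.0314% of all genes in each direction). At an unadjusted p under 0.05, limma had 30 members higher (3.39% of all genes) and 1 lower, Ifnar1 (2.41% of all genes). All 4 females lay above all 6 males for Stat2, Ifih1, Dtx3l and Irgm1, 4 of 44 members against 0.494% of all genes. Without the library labelled control female 1, limma called 0 members for sex, 38 lay above 0 (54.1% of all genes in that fit), their median was 0.22, and 26 were higher (6.84%) and 2 lower (3.87%) at an unadjusted p under 0.05. The diet effect in males and the sex effect in controls share the 3 control males, so the low values there enter both.

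Stat2 had the smallest p for sex, with 84.7 ± 6.83 TPM in control males (SD, n = 3) and 118 ± 3.09 TPM in control females (SD, n = 2). On PLX5622 it stood at 94.3 ± 3.26 TPM in males (SD, n = 3) and 118 ± 14.0 TPM in females (SD, n = 2). Its log2 fold change for sex was 0.40 ± 0.07 (SE, limma adjusted p = 0.0979), and without PLX5622 female 1 it was 0.46 with a limma adjusted p of 0.0357, the only setting run in which a member passed for sex. Irgm1 had 0.37 ± 0.07 (limma adjusted p = 0.136), Ifi35 had 0.23 ± 0.05 and Ifi27l2a had 0.84 ± 0.19, the largest sex difference of the list (SE, limma adjusted p = 0.457 for both). Without the library labelled control female 1 the sex values were smaller, at 0.37 for Stat2, 0.32 for Irgm1, 0.20 for Ifi35 and 0.66 for Ifi27l2a. The lowest values for sex were -0.14 for Ifnar1, -0.10 for Ifnar2 and -0.10 for Ifngr1, so the 3 receptors had the lowest sex values of the list.

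Within controls, 32 of 44 members were higher in both females than in all 3 males (9.73% of all genes) and 0 were lower (4.91%). Control female 2 alone lay above all 3 control males for 32 members (35.9% of all genes) and below them for 0 (18.4%). On PLX5622 both females were above all 3 males for 17 members (9.93% of all genes), and the 3 receptors were lower in both females than in all males (10.8% of all genes were). By role, the median log2 fold change for sex was 0.35 for the IFIT and ISG15 system, 0.34 for the OAS family and PKR, 0.27 for the PARP, DTX and TRIM genes, 0.25 for the transcription factors and 0.21 for the GTPases. All 8 GTPases lay above 0 for sex (54.4% of all genes did), whereas their diet median was 0.03. Igtp, a regulator within this family, had 0.43 for sex and -0.06 for diet.

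The diet difference was larger in males than in females for most members, but the test of that difference called none. Within males, 38 of 44 members lay above 0 (48.4% of all genes), their median log2 fold change was 0.22, and at an unadjusted limma p under 0.05, 20 were higher (2.64% of all genes) and 0 lower (2.43%). At an adjusted p under 0.05 limma called 0 members within males (0.0235% of all genes higher and 0.00784% lower) and 0 within females (0% of all genes in each direction). All 3 PLX5622 males lay above all 3 control males for 20 members (4.53% of all genes), and for 0 members did they lie below (5.71%). Within females, 26 of 44 lay above 0 (41.3% of all genes), with a median of 0.07. At an unadjusted limma p under 0.05, 1 member was higher in females, Irf7 (1.48% of all genes), and 3 were lower, Ifngr1, Gbp4 and Ifnar2 (3.33% of all genes). Both PLX5622 females lay above both control females for 10 members (10.1% of all genes) and below them for 7 (21.4%). Against control female 2 alone, both PLX5622 females lay above for 25 members (23.3% of all genes) and below for 11 (45.1%).

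**Figure D5:**
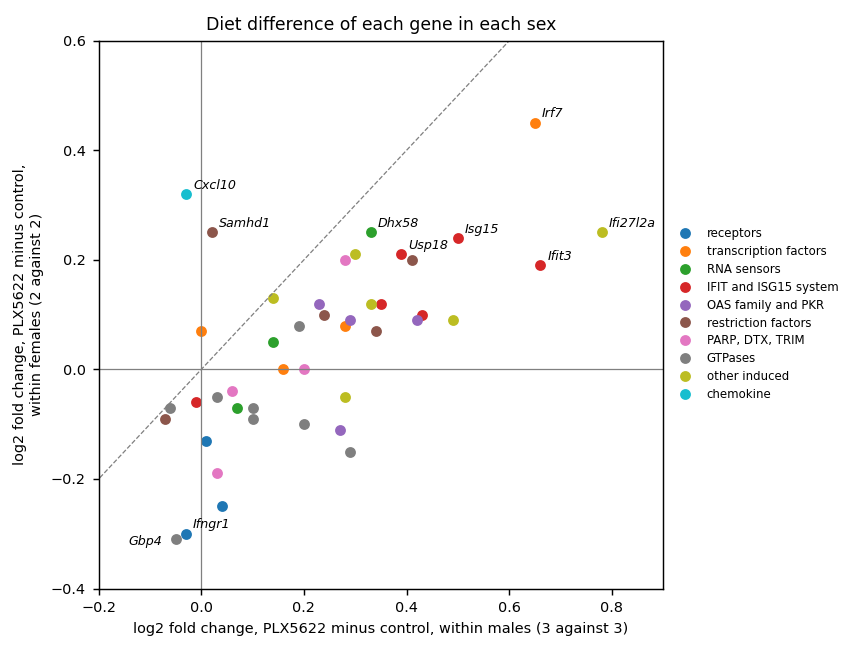
Log2 fold change for PLX5622 minus control within males (x axis, 3 libraries against 3) and within females (y axis, 2 libraries against 2) for each of the 44 tested genes, coloured by role, with a dashed line where the sexes are equal. All but 3 genes (Samhd1, Cxcl10 and Irf1) lie below the dashed line, Irf7 is at 0.65 and 0.45, and the GTPases and receptors lie mostly below 0 in females.

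The interaction, the diet effect in females minus that in males, had a median of -0.19 over the members and -0.03 over all genes, and 41 of 44 members lay below 0 (55.9% of all genes). Limma called 0 members for it at an adjusted p under 0.05 (0% of all genes in each direction) and 0 at an unadjusted p under 0.05, where 0.674% of all genes were higher and 1.77% lower. The smallest limma adjusted p of a member was 0.999, and without control male 2 limma had 7 members lower at an unadjusted p under 0.05 (2.16% of all genes in that fit). Without the library labelled control female 1 the median was -0.13, 10 members lay above 0 (38.8% of all genes in that fit), and 0 were higher (0.847%) or lower (1.58%) at an unadjusted limma p under 0.05. The 3 genes above 0 were Samhd1, Cxcl10 and Irf1. Irf7 had 0.65 ± 0.16 in males and 0.45 ± 0.19 in females (SE). Ifit3 had 0.66 ± 0.17 in males and 0.19 ± 0.21 in females, and Isg15 had 0.50 ± 0.14 and 0.24 ± 0.17 (SE). Of the 8 GTPases 7 lay below 0 in females, where 41.3% of all genes lay above 0. The receptors had -0.13 (Ifnar1), -0.25 (Ifnar2) and -0.30 (Ifngr1) in females against 0.01, 0.04 and -0.03 in males.

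Diet and sex values were also read with the members split by an ISRE core in the promoter window. The 19 tested members with a match had a median diet log2 fold change of 0.11, with 17 above 0 (44.3% of all genes). The 16 without had 0.12, with 11 above 0. For sex the members with a match had a median of 0.30, and all 19 lay above 0 (54.4% of all genes). Those without had 0.20, and 12 of 16 lay above 0. The 3 receptors are all among the members without a match, and so is Irf7. The 9 members with no promoter in the table had medians of 0.24 for diet and 0.30 for sex. The split is a description and was not tested.

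A further list of 63 interferon-stimulated genes outside the members was read in the same fit. Of 49 tested, 37 lay above 0 for diet (44.3% of all genes did), with a median log2 fold change of 0.15. At an unadjusted limma p under 0.05, 13 were higher (3.13% of all genes) and 1 lower (5.18%), and none passed the limma test. For sex 47 of 49 lay above 0 (54.4% of all genes), with a median of 0.22. Its most abundant genes, Ly6e, a surface protein, and Lgals9, a galectin, had diet values of 0.08 and 0.10. Mx2, an antiviral GTPase of the dynamin family, was chosen after its values were seen and averaged 42.2 ± 5.38 TPM in the controls against 54.2 ± 4.26 TPM under PLX5622 (SD, n = 5 per diet, log2 fold change 0.36 ± 0.07 SE, limma adjusted p = 0.0885). Ifi203, the 1 gene that was lower at an unadjusted p, was also named after its value was seen, at -0.38 (limma adjusted p = 0.397).

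The signalling genes around the receptors lay on both sides of 0. Of 13 tested, 6 lay above 0 (44.3% of all genes did) and 7 below for diet with a median of -0.01, and none passed the limma test. The most abundant were Socs3, a feedback inhibitor of cytokine receptors, at 0.15 (limma adjusted p = 0.476), and Il10rb, a shared receptor chain, at -0.16 (limma adjusted p = 0.497). Of 14 tested genes of nucleic acid sensing, 9 lay above 0 (44.3% of all genes did) with a median of 0.08, and none passed. The most abundant were Irf3 and Irf2 at 0.08 each. Of 11 interferon genes none was tested. Ifnb1 had 2 reads and Ifnk 3 reads over the 5 control libraries and 0 on PLX5622, and the other 9 were listed at 0 in all 10 libraries, where a count of 0 allows up to 3 reads per library.

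The marker sums of other cell types are given beside the members' levels. Across the 5 controls, in the order males 1 to 3 and females 1 and 2, the 18 microglial markers summed to 128, 181, 237, 56.6 and 191 TPM, while the mean of the members was 118, 127, 104, 152 and 134 TPM. Control male 3 thus had the highest microglial sum and the lowest member mean, and control female 1 the reverse. In the other controls, males 1 and 2 and female 2, the member mean rose with the microglial sum. The part of microglial RNA in the members' values was not tested. The 9 markers of border macrophages summed to between 62 and 80.3 TPM in the controls and between 61.3 and 82.7 TPM under PLX5622, and the 17 of blood leukocytes to 1.77 to 16.5 and 5.55 to 12.9 TPM. The 9 pericyte markers summed to 334 to 494 and 375 to 523 TPM, with 8 of 9 above 0 for diet (44.3% of all genes) and a median log2 fold change of 0.14. Of the 5 smooth muscle markers tested 0 lay above 0 for diet (44.3% of all genes did), with a median of -0.21. The most abundant were Myl9, at -0.08 (limma adjusted p = 0.945), and Tagln, an actin-binding protein, at -0.37 (limma adjusted p = 0.558). Sums for smooth muscle were 215 to 342 and 203 to 296 TPM, for astrocytes 91 to 130 and 73.8 to 152 TPM, and for neurons and oligodendrocytes 5.35 to 13.4 and 7.29 to 12.7 TPM. None of these ranges separated the diets, apart from the microglial sum.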

How the data were processed

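Polyadenylated RNA of sorted CD31+ brain cells was sequenced from unstranded libraries, per the labels' protocols. Per the submitters' processing notes the tools were STAR 2.7.10a with build mm39, featureCounts of Subread 2.0.1, and DESeq2 1.32.0 under R 4.1.0, and the annotation and the model formula are not given in the sources used here. The authors deposited TPM for 26264 genes in 10 libraries, and a table of 19474 genes with log2 fold change and its standard error, p-value, adjusted p-value, a test statistic and a mean count. The test statistic and the mean normalized count of that deposited table have no fixed range and are listed as scores; the mean counts served only to recover whole reads.

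Diet and sex were tested two-sided with limma 3.58.1 (R 4.3.3), with trended variance and terms for both, using log2 of TPM plus a pseudocount of 1, over 12751 genes with 5 or more libraries at 1 TPM or above. P-values were adjusted by Benjamini-Hochberg with a threshold of 0.05. For low genes the fold change on this scale is an underestimate. The interaction and the effects within each sex came from a limma fit of 4 group means. P-values measure the spread between libraries. Whole reads were recovered from TPM and the authors' mean counts (100.0% whole within 0.05 reads) and give the depth of 26.4 to 61.5M; these are recovered values and not the deposited unit. The test was checked on simulated data with 50 genes changed at each fold. It called 26% of those changed 1.25-fold, 76% at 1.5-fold and 96% at 3-fold, and 7 unchanged genes. Differences as small as those of most members would thus often be missed.

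Values per library are given for members called in either table, for the 8 smallest limma p for diet and the 4 smallest for sex, and for the receptors; other members are given by role. Of other lists, called genes or else the 2 most abundant are named. Members and lists were chosen with earlier results of these data known. Promoters were searched in RefSeq windows with Python 3.11.15, numpy 2.4.6 and pandas 2.3.3. Same-numbered libraries of the 2 diets were not treated as pairs in the main fit. The correlation of their deviations was 0.12, 0.03 and 0.19 in males and 0.16 in females, and a fit with pairs is given below. Alternatives changed the pseudocount (0.1 and 5), the scaling, the filter, the covariates, the weights, the variance model and the libraries.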

Additional observations from a re-analysis of the deposited data

Results flagged for a closer look

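Each of the 44 tested members was examined for a library far from the others of its diet, in 88 groups of 5 libraries, and 2 groups held such a value; chance gives about 1 in 20. Rtp4, a receptor transporter induced by interferon, was 84.9 TPM in PLX5622 male 1 against 96.3 to 101 TPM in the other 4 PLX5622 libraries, a gap of 0.737 of the whole range on the log2(TPM + 1) scale. Lgals3bp, a secreted glycoprotein, was 167 TPM in PLX5622 male 3 against 186 to 192 TPM in the other 4, a gap of 0.801 of the range on that scale. Both gaps exceed Dixon's limit of 0.71 for 5 values.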

How the results depend on the processing

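Over the settings run with limma, 28 of 44 members kept the sign of their diet difference in all 24 and 40 of 44 that of their sex difference in all 20, and the cause of the changes listed here was not tested. The median diet log2 fold change ran from 0.11 to 0.17 when each library was left out, and was 0.15 with median-of-ratios scaling. No member passed for diet in any setting, the smallest limma adjusted p for Irf7 being 0.056 with voom on recovered reads. Members higher on PLX5622 at an unadjusted p under 0.05 numbered 11 without the sex term (2.99% of all genes in that fit). When each library was left out they ran from 13, without control male 3 (3.49%), to 20, without control male 2 (2.66%). In a fit of females alone 1 was higher and 1 lower, and the share of all genes there is not given. Members lower ranged from 0 to 3 when each library was left out. They numbered 3 without control male 3 (6.45% of all genes in that fit) and 1 without PLX5622 male 2 (4.48%).

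For sex, 0 to 1 member passed (Stat2 at 0.46, without PLX5622 female 1). Members lower in females at an unadjusted p ranged from 0 to 2 when each library was left out. They numbered 2 without control male 3 (3.33% of all genes in that fit) or control female 1 (3.87%). The count was 0 without control male 1 (2.21%), PLX5622 male 1 (1.88%) or PLX5622 male 2 (2.47%). It was also 0 without PLX5622 female 1 (2.42%) or PLX5622 female 2 (1.36%). Without the variance trend it was 0 too, and the share of all genes there is not given. For the interaction, members above 0 numbered 6 with median-of-ratios scaling, array weights or voom, where the share of all genes is not given. They numbered 9 without both control female 1 and PLX5622 male 2 (40.1% of all genes in that fit). When each library was left out they ran from 3 to 10. The 10 came without control female 1 (38.8%), and 7 without control male 3 (45.3%). Without control female 2 (47.7%) or PLX5622 female 1 (45.4%) they numbered 5. Members lower at an unadjusted p numbered 1 with quantile normalization, where the share is not given, and 0 to 7 when each library was left out. They numbered 7 without control male 2 (2.16% of all genes in that fit) and 5 without control female 2 (2.1%). Without PLX5622 male 3 they numbered 3 (2.77%), and without PLX5622 female 1 they numbered 2 (2.49%). The count was 1 without control male 1 (2.03%) or PLX5622 male 1 (1.62%). Members higher numbered 0 to 1, the 1 without PLX5622 female 1 (1.4% of all genes in that fit).

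Diet values changed sign as follows. Ifi47 was -0.0005 with a pseudocount of 5 and -0.02 with array weights. In males alone Dtx3l was 0.03, Ifnar1 0.01, Ifnar2 0.04 and Cxcl10 -0.03. In females alone Oas2 was -0.11, Ifi47 -0.05, Ifih1 -0.07, Trim30a -0.04, Parp9 -0.0040, Lgals3bp -0.05, Gbp2 -0.07, Gbp3 -0.10, Gbp7 -0.09 and Iigp1 -0.15. Leaving out each library gave -0.03 to 0.09 for Irf1, -0.09 to 0.11 for Ifi47, -0.04 to 0.29 for Cxcl10, -0.01 to 0.04 for Ifih1, -0.12 to 0.03 for Igtp, -0.03 to 0.05 for Trim30a, -0.03 to 0.08 for Gbp2 and -0.02 to 0.08 for Gbp7. Leaving out both control female 1 and PLX5622 male 2, chosen after seeing the data because an earlier look at these libraries set them apart, gave -0.02 for Ifih1 and -0.05 for Gbp7 in diet, and -0.06 for Ifi47 and -0.01 for Cxcl10 in sex. Sex values changed sign for Irf1 at 0.03 with array weights, and leaving out each library gave -0.06 to 0.04 for Irf1, -0.05 to 0.19 for Ifi47, -0.01 to 0.06 for Ifitm2 and -0.06 to 0.21 for Cxcl10.

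The replicate block, which treats same-numbered libraries of a sex as pairs, called 0 members for diet. It had 20 higher at an unadjusted p, 36 above 0 and a median of 0.13, and the shares of all genes in it are not given. Same-numbered libraries deviated together with r of 0.12, 0.03 and 0.19 in males and 0.16 in females, across genes. With 2 females per diet, both female numbers share that value by construction. Males of different number had r from -0.18 to 0.08, and not every male correlated best with its own number. Count tests on recovered reads other than voom were planned and not run, since the files hold TPM. Depth limits Oas3 and the interferon genes, and 2 females per diet limit the comparisons within females.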
